A study of Homo sapiens with 12 samples.

Results

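Transcripts of 10 genes of the BCL2 family, the regulators of mitochondrial apoptosis, were followed by RNA sequencing of polyadenylated RNA in 4 lines of HMLE cells, an immortalised human line of breast epithelium. One line overexpressed CT83, another HORMAD1, another both (the double line) and the last a control transgene, and all were puromycin-selected. Both transgenes are cancer/testis genes, normally expressed in germ cells, and HORMAD1 acts in meiosis; the question was the function of each and their possible cooperation. There were 3 replicate libraries per line and 12 together. The labels give 1 line per construct, so a construct's effect cannot be told apart from a difference between lines. They do not say whether replicates were separate cultures, and the spread that the p-values rest on may be technical. In bulk RNA, fewer cells of a type and less RNA per cell cannot be told apart either.

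The members were taken by name from the 61533 gene entries of the deposited tables: the anti-apoptotic genes BCL2L1, MCL1 and BCL2A1, the effectors BAX and BAK1, and the BH3-only genes BID, BIK, BCL2L11, BBC3 and PMAIP1. All 10 were found, each as 1 entry, and 9 passed the filter on low counts that left 15616 genes for testing; BCL2A1 did not. The values are whole-gene values, so the long anti-apoptotic and short splice forms of BCL2L1 and MCL1 were not separated.

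The BCL2 family decides whether the outer membrane of the mitochondrion stays closed or is opened during apoptosis. Anti-apoptotic members hold the membrane closed, the effectors BAX and BAK1 form the pores through which cytochrome c escapes, and BH3-only members relay stress signals by binding one or both of these groups. In epithelial cells the BH3-only protein BIM, the product of BCL2L11, is known for its part in cell death after loss of matrix contact, and MCL1 is known for its short half-life.

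Libraries held 9898845 to 14159740 expected counts. Both transgenes followed the labels, with HORMAD1 and CT83 at 0 counts in all libraries of the lines not carrying them. HORMAD1 was at 290 ± 75.5 CPM in its own line and 314 ± 31.8 in the double line (SD, n = 3 each), but CT83 was at 523 ± 175 CPM in its own line and only 102 ± 15.6 in the double line, a log2 difference of -2.36 (adjusted p = 0.585 in edgeR, 6.12e-11 in DESeq2 and 3.1e-05 in limma-voom). The double line was thus not compared with the CT83 line at an equal CT83 level, and the interaction is not the departure from a sum of effects at equal levels. Basal markers were high (KRT5 at 2410 to 3130 and TP63 at 131 to 158 CPM, the count relative to the scaled library total), the luminal keratin KRT8 was at 1770 to 2660 CPM and KRT19 had 2 to 17 counts. Of 3 leukocyte markers, PTPRC and CD3E had at most 1 and 2 counts per library and CD74 had 1 to 22; 3 endothelial markers summed to 2 to 20 counts. The 5 fibroblast markers summed to 37.8 to 82.4 CPM in control, 26.3 to 41.3 in the CT83 line, 25 to 44.4 in the HORMAD1 line and 35.9 to 85.8 in the double line. Most of these sums came from COL1A1 (5.4 to 60.5 CPM over the 12 libraries) and FAP (17.1 to 22.5 CPM). DCN and LUM had at most 14 and 13 counts per library. Control replicate 3 stood apart in COL1A2, with 224 counts against 0 to 5 in the other 11 libraries. Whether these transcripts came from fibroblasts, and their part in the results, was not tested. Control replicate 2, CT83 replicate 3 and HORMAD1 replicate 1 rose more steeply with transcript length than the other libraries of their lines, with slopes of 0.027, 0.05 and 0.056 log2 units per doubling of length against -0.024 to 0.001 in the other libraries of these lines. In the double line replicate 3 was also the highest, at 0.004 against -0.044 and -0.026.

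Upstream sequences are shown for the pair of members on which the results turn most: BCL2L11, with its lowest levels in the double line, and PMAIP1, with the widest spread within lines. RefSeq promoter windows (GRCh38.p14, 250 bases before to 50 after the annotated start) were matched for 8 of the 10 members. The stretch of BCL2L11 is chr2:111120664-111120913, plus strand, directly before the RefSeq start and inside the longer gene span of GENCODE 29. The stretch of PMAIP1 is chr18:59899746-59899947, plus strand, and ends where the first GENCODE exon begins. Capitals mark the forkhead motif GTAAACA in BCL2L11 and the CRE core TGACGT, here on the minus strand, in PMAIP1.
BCL2L11: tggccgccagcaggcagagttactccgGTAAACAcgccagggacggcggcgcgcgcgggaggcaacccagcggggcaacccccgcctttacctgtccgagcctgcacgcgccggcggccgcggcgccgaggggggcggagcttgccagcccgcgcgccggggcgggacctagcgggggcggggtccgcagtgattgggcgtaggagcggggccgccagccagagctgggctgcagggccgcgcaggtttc
PMAIP1: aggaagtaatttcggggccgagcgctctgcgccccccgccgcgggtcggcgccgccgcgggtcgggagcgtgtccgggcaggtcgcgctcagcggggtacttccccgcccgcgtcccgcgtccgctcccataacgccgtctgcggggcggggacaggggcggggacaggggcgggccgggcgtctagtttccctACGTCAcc

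Forkhead factors such as FOXO3 are known activators of BCL2L11, and factors binding CRE sites include ATF4, a regulator of the stress response. Among 35116 windows of this length, 3.42% held the forkhead motif and 7.98% the CRE core, on either strand. Of the members' windows, only that of BCL2L11 held the forkhead motif and only that of PMAIP1 the CRE core. The GC box GGGCGG was present 3 times in the BCL2L11 window and 4 times in that of PMAIP1, against at least 1 match in 45% of all windows, and the E-box CACGTG was present 4 times in the window of BAX against 7.26% of windows with a match. The motifs were chosen after the sequences had been seen; matches describe letters in the windows and were not tested as binding sites.

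Among the anti-apoptotic members, BCL2L1 and MCL1 were abundant in every line, while BCL2A1 was close to absent. BCL2L1 (ENSG00000171552.14, chromosome 20, 31664452 to 31723989, minus strand of GRCh38 in GENCODE 29) encodes BCL-XL. Its CPM was 213, 200 and 204 in control libraries 1 to 3, and 182, 163 and 203 in those with CT83 alone. It was 193, 222 and 234 with HORMAD1 alone, and 165, 192 and 194 in the double line. Both lines carrying CT83 thus had means of 183 ± 20.1 and 184 ± 16.6 CPM, below the 205 ± 6.74 CPM of control and the 216 ± 20.8 CPM of the HORMAD1 line (SD, n = 3 each). The double libraries lay below all controls, while the CT83 libraries overlapped them.

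The log2 fold change of BCL2L1 in the double line was -0.16 (SE 0.1) against control and -0.24 (SE 0.1, 95% interval -0.44 to -0.03) against the HORMAD1 line. Neither passed the quasi-likelihood test of edgeR, adjusted over all genes by the Benjamini-Hochberg method (adjusted p = 0.9 and 0.595). In the CT83 line the difference from control was -0.17 (SE 0.1, adjusted p = 0.984). Without control replicate 2, CT83 replicate 3 and HORMAD1 replicate 1 together, a choice made with earlier results of these data known, BCL2L1 was lower in the double line than in the HORMAD1 line (-0.31, SE 0.07, edgeR adjusted p = 0.0195). In that setting 339 genes were called in place of 7, and BCL2L1 was the 1 member among them. With double replicate 3 also left out, a library picked after its values had been seen, BCL2L1 was called against the HORMAD1 line as well (-0.35, SE 0.07, edgeR adjusted p = 0.00391), and in the CT83 line against control (-0.27, SE 0.07, edgeR adjusted p = 0.0428). BCL2L1 is overlapped on the opposite strand by ABALON, whose count was 0.439 to 0.502 times that of BCL2L1 in every library, and the use of strand in counting is not given in the sources used here. With ABALON counts added, the difference between the double and HORMAD1 lines was -0.21 (SE 0.09).

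MCL1 (ENSG00000143384.14, chromosome 1, 150574551 to 150579738, minus strand) had 253, 256 and 259 CPM in control and 254, 241 and 258 CPM with CT83 alone. It had 309, 268 and 269 CPM in the HORMAD1 line and 247, 231 and 292 CPM in the double line. All HORMAD1 libraries lay above all controls, with HORMAD1 replicate 1 the highest of the 12. The log2 fold change in the HORMAD1 line was 0.14 (SE 0.09, 95% interval -0.05 to 0.33, edgeR adjusted p = 1), and 0.07 without HORMAD1 replicate 1. Against control, the CT83 and double lines had values of -0.03 and 0 (SE 0.09 each).

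BCL2A1 (ENSG00000140379.9, chromosome 15, 79960889 to 79971446, minus strand), an anti-apoptotic gene known as a target of NF-kB and abundant in blood cells, had 0 to 6 counts per library and 17 counts in all. The control libraries had 3, 1 and 1 counts, the CT83 libraries 0, 1 and 2, the HORMAD1 libraries 1, 2 and 6, and the 3 double libraries 0. A count of 0 in the double libraries allows up to 3 counts, or 0.263 to 0.302 CPM, for counting error only. At this depth no difference between lines was detectable for BCL2A1.

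**Figure D1:**
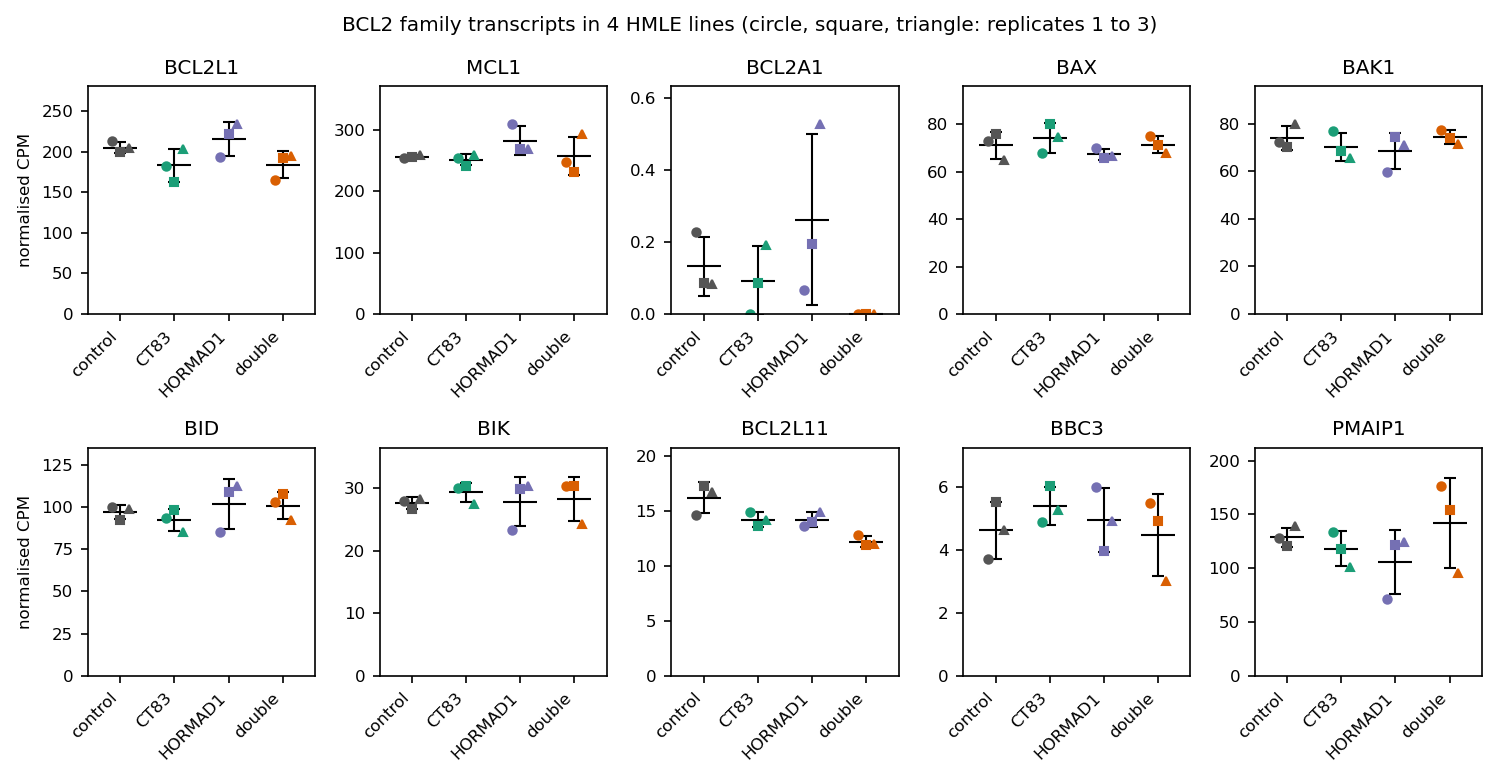
Normalised CPM of the 10 members in each library (y axis, linear from 0, scaled for each gene) by line (x axis). Points are replicates 1 to 3, and black marks give the mean and SD of 3. BCL2L11 is lowest in the 3 double libraries, at 11.9 to 12.8 CPM, BCL2A1 is near 0 in all lines, and PMAIP1 has a wide spread in the HORMAD1 and double lines.

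The effectors had similar levels in all 4 lines. BAX (ENSG00000087088.21, chromosome 19, 48954815 to 48961798, plus strand), which moves from the cytosol to mitochondria when activated, was at 71.3 ± 5.71 CPM in control, 74.3 ± 6.14 in the CT83 line, 67.4 ± 2.29 in the HORMAD1 line and 71.5 ± 3.7 in the double line (SD, n = 3 each). Its libraries ranged from 64.9 to 80.2 CPM over all lines. BAX was thus among the steadiest members, and the 95% intervals of its log2 fold changes against control ran from -0.27 to 0.25 over the 3 lines. BAK1 (ENSG00000030110.14, chromosome 6, 33572547 to 33580293, minus strand), which resides in the mitochondrial membrane, was at 74.1 ± 5.08, 70.3 ± 5.86, 68.4 ± 7.59 and 74.3 ± 2.96 CPM in the same order. Its lowest library was HORMAD1 replicate 1 at 59.9 CPM and its highest control replicate 3 at 79.9 CPM. The intervals of BAK1 against control ran from -0.32 to 0.21, and the lines overlapped in every comparison.

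BAK1 shares its whole span with GGNBP1, an annotated unitary pseudogene on the opposite strand. GGNBP1 had 9874 counts over the 12 libraries and BAK1 9973, and their ratio lay between 0.915 and 1.08 in every library. The deposited value was not whole in 5 libraries for BAK1 and in 6 for GGNBP1. Without the strand used in counting, reads of these genes cannot be told apart, so the level of BAK1 is uncertain. With the counts of both genes added, the log2 fold changes against control were -0.07, -0.08 and 0.05 (SE 0.09 each) in the CT83, HORMAD1 and double lines.

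**Figure D2:**
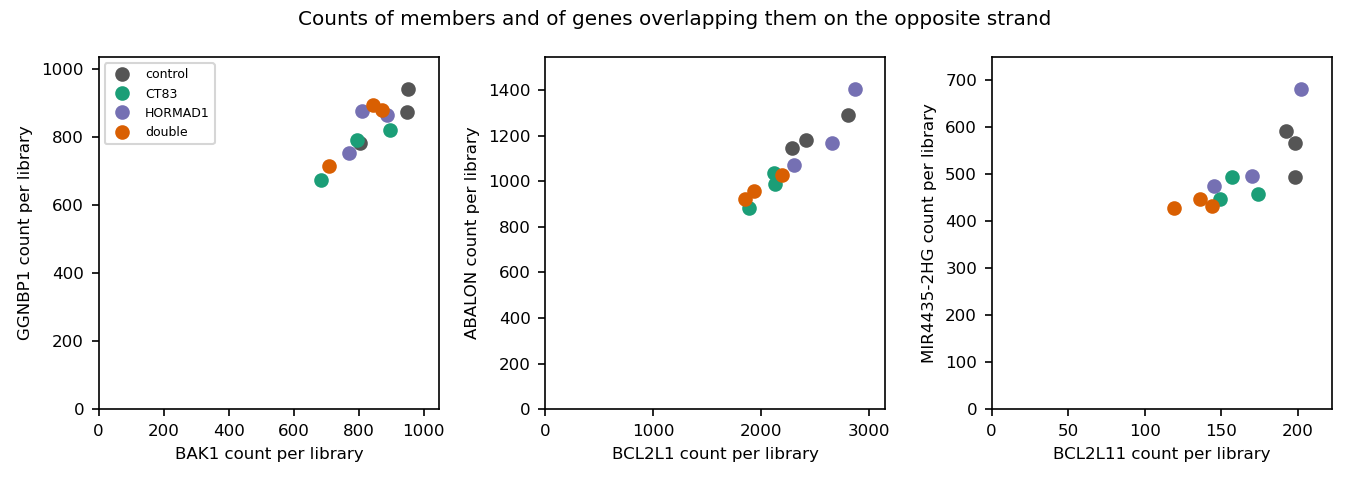
Rounded counts per library of BAK1, BCL2L1 and BCL2L11 (x axes) against those of the genes that overlap them on the opposite strand, GGNBP1, ABALON and MIR4435-2HG (y axes); each point is 1 of 12 libraries, coloured by line, and axes start at 0. GGNBP1 and BAK1 have nearly equal counts, with ratios from 0.915 to 1.08.

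Among the BH3-only members, BCL2L11 differed most between lines relative to its spread. At 119 to 202 counts per library, however, its spread in the double line (SD 3.9% of the mean) was smaller than counting error alone would give. The observed spread thus understates the uncertainty of its level and of its separation between lines. BCL2L11 (ENSG00000153094.24, chromosome 2, 111119378 to 111168447, plus strand) encodes BIM, which binds all anti-apoptotic members and can activate BAX. It was at 14.6, 17.3 and 16.7 CPM in control, 14.9, 13.6 and 14.2 CPM with CT83 alone, 13.6, 14 and 14.9 CPM with HORMAD1 alone, and 12.8, 11.9 and 12 CPM in the double line. The 3 double libraries lay below all 9 others, and the libraries of the single lines overlapped each other and control. Over all genes tested, 1.15% had every double library below all 9 others, and BCL2L11 was the 1 such member; this count was chosen after the values were seen.

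The mean of BCL2L11 in the double line, 12.2 ± 0.477 CPM, was 0.756 times the 16.2 ± 1.44 CPM of control (SD, n = 3 each). The exact permutation test of these means, two-sided, gave p = 0.1, which is the lowest value open to 3 against 3 libraries. The log2 fold change was -0.4 (SE 0.12, 95% interval -0.66 to -0.15), with an unadjusted p of 0.00453 and an adjusted p of 0.712 in edgeR's test, so it did not pass over all genes. DESeq2 and limma-voom gave adjusted p-values of 0.739 and 0.755. The estimate lay between -0.48 and -0.35 when each of the 12 libraries was left out in turn, and was -0.38 without control replicate 3, the library with high COL1A2. Against the CT83 and HORMAD1 lines the double line differed by -0.22 and -0.21 (SE 0.12 each), and the interaction, the departure of the double line from the sum of the differences of the single lines, was -0.03 (SE 0.17). The single lines were at -0.18 and -0.19 against control (SE 0.12 each). BCL2L11 lies within the long span of MIR4435-2HG on the opposite strand, whose counts were 2.49 to 3.6 times those of BCL2L11. With these added, the difference of the double line from control was -0.23 (SE 0.08). Most of that sum is MIR4435-2HG, with 6002 counts over all libraries against 1984 for BCL2L11, and its own difference was -0.17 (SE 0.09). In the summed counts the double libraries overlapped those of the CT83 line. As the use of strand is not given, the level of BCL2L11 is uncertain too.

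FOXO3, the forkhead factor named above, was at 35.2, 37.2 and 34.6 CPM in the double line and 47.6, 50.2 and 41.6 CPM in control. The double libraries of FOXO3 lay below all controls, as did those of 7.83% of all genes. Its log2 fold change of -0.38 (SE 0.13) did not pass (edgeR adjusted p = 0.797). FOXO3 was at 37.1, 37.5 and 52.4 CPM with CT83 alone and at 47.5, 47.4 and 40.5 CPM with HORMAD1 alone, and both overlapped control. Whether FOXO3 had a part in the level of BCL2L11 was not tested. ATF4, named above with the CRE sites, was at 353 ± 4.69, 331 ± 19.5, 339 ± 9.09 and 338 ± 3.73 CPM in the control, CT83, HORMAD1 and double lines (SD, n = 3 each). Its double libraries also lay below all controls, with a log2 fold change of -0.06 (SE 0.07). Whether ATF4 had a part in the level of PMAIP1 was not tested either.

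PMAIP1 (ENSG00000141682.12, chromosome 18, 59899948 to 59904306, plus strand) encodes NOXA, which binds MCL1 and BCL2A1 and is induced by p53 and by the stress response. It was at 128, 121 and 139 CPM in control, 134, 118 and 101 CPM with CT83 alone, 71.2, 122 and 124 CPM with HORMAD1 alone, and 177, 154 and 95.5 CPM in the double line. The highest and lowest of the 12 libraries differed 2.49-fold, and all lines overlapped. HORMAD1 replicate 1 and double replicate 3 stood well below the other libraries of their lines. The log2 fold change between the double and HORMAD1 lines was 0.43 (SE 0.25, 95% interval -0.13 to 0.99, edgeR adjusted p = 0.734) and lay between 0.2 and 0.65 when single libraries were left out. The interaction for PMAIP1 was 0.57 (SE 0.36, edgeR adjusted p = 0.841). The calls on PMAIP1 depended on which libraries were kept. Without the 3 libraries of steep length trend the difference between the double and HORMAD1 lines was 0.21 (SE 0.26, edgeR adjusted p = 0.821). With double replicate 3 left out as well, it was 0.43 (SE 0.08, edgeR adjusted p = 0.00109), that from the CT83 line was 0.39 (SE 0.07, adjusted p = 0.00908) and the interaction was 0.51 (SE 0.11, adjusted p = 0.0262). Double replicate 3 was picked after its values had been seen and is the double library with the lowest PMAIP1, so these calls are no independent evidence of a difference. The standard deviation within lines on the log2 scale was 0.34, against a median of 0.19 over all genes tested and 0.08 for BCL2L11.

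BBC3 (ENSG00000105327.18, chromosome 19, 47220822 to 47232766, minus strand) encodes PUMA, a p53 target that binds every anti-apoptotic member. It had 30 to 89 counts per library, with means of 4.62 ± 0.896, 5.4 ± 0.595, 4.96 ± 1.02 and 4.48 ± 1.3 CPM in the control, CT83, HORMAD1 and double lines (SD, n = 3 each). Its 95% intervals against control, from -0.55 to 0.74 over the 3 lines, were wide, and at these counts smaller differences were not detectable.

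BID (ENSG00000015475.19, chromosome 22, 17734138 to 17774770, minus strand), which links caspase-8 to the mitochondrion, was at 97.2 ± 4.34, 92.5 ± 6.54, 102 ± 14.8 and 101 ± 8.08 CPM in the same order. BIK (ENSG00000100290.3, chromosome 22, 43110748 to 43129712, plus strand), a BH3-only protein of the endoplasmic reticulum, was at 27.6 ± 0.908, 29.3 ± 1.5, 27.8 ± 3.94 and 28.3 ± 3.54 CPM. HORMAD1 replicate 1 was the lowest library for BIK, at 23.3 CPM, and shared the lowest value of BID with CT83 replicate 3, at 85.4 CPM. The lines overlapped in every comparison for both genes.

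Per transcript length, the control line ranked the members as BCL2L1, PMAIP1, MCL1, BAX, BID, BAK1, BIK, BCL2L11, BBC3 and BCL2A1. The levels were 78.7 ± 2.58 CPM per kb of longest transcript for BCL2L1, 66.5 ± 4.52 for PMAIP1, 65 ± 0.744 for MCL1 and 52.5 ± 4.2 for BAX (SD, n = 3). BID, BAK1 and BIK followed at 39 ± 1.74, 33.5 ± 2.3 and 29 ± 0.953 CPM per kb. Far below stood BCL2L11 at 3.09 ± 0.275, BBC3 at 2.51 ± 0.487 and BCL2A1 at 0.129 ± 0.0792 CPM per kb. PMAIP1 and MCL1 overlapped in their libraries, as did BCL2L11 and BBC3, while the other neighbours in this order did not overlap. The place of BAK1 is uncertain, since its reads and those of GGNBP1 cannot be told apart. The level of BCL2L1 carries the same limit through ABALON. In the double line PMAIP1 had the highest mean, 72.9 ± 21.6 CPM per kb, but overlapped BCL2L1 (70.4 ± 6.36) and MCL1 (65.3 ± 7.97). In the HORMAD1 line PMAIP1 stood at 54.3 ± 15.3 CPM per kb, after BCL2L1 (82.9 ± 7.95) and MCL1 (71.7 ± 5.99). Both the scale and the order depend on the transcript chosen. With the median in place of the longest transcript, BCL2L11 in control was at 18.3 and BBC3 at 2.81 CPM per kb. There BCL2L1 was at 225 CPM per kb, ahead of MCL1 (108), BAX (105) and PMAIP1 (103). In the double line BCL2L1 was then at 201 and PMAIP1 at 113 CPM per kb, so PMAIP1 no longer came first.

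**Figure D3:**
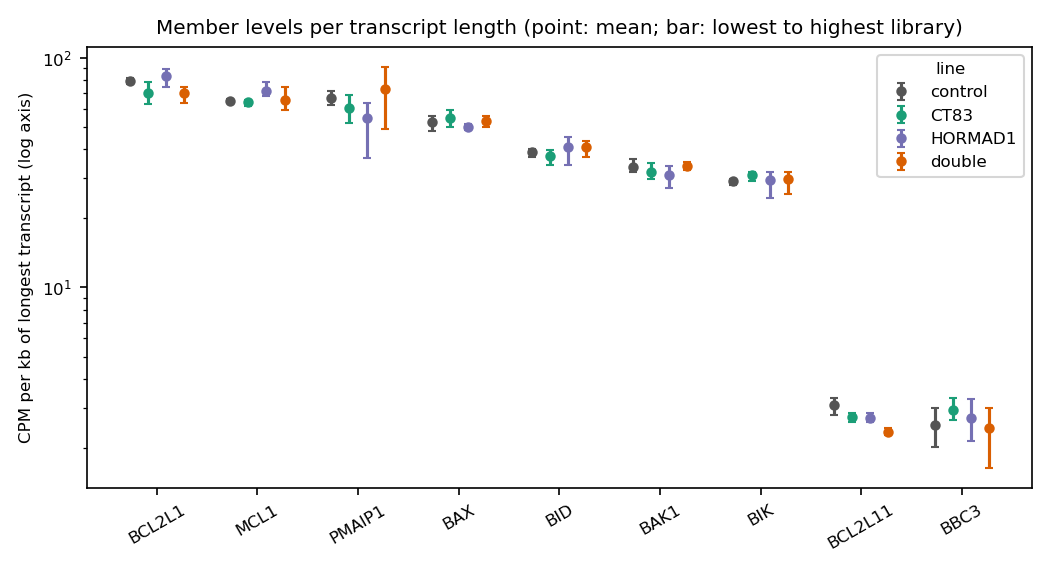
CPM per kb of the longest GENCODE 29 transcript (log y axis) for the 9 members that passed the filter (x axis, ordered by mean), by line; points are means of 3 libraries and bars run from the lowest to the highest library. BCL2L11 and BBC3 lie at 3.09 and 2.51 in control, far under the other 7 members.

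In the 5 comparisons between lines and the interaction, 0 of the 9 members tested passed an adjusted p of 0.05 in edgeR with all 12 libraries, and 0 passed in DESeq2 or limma-voom. Calls were rare over all genes as well, at 0.0064% of genes in the CT83 line and in the HORMAD1 line against control, 0.0256% in the double line against control, 0.0064% and 0.0448% in the double line against the CT83 and HORMAD1 lines, and 0% for the interaction. An unadjusted p under 0.05 was reached by BCL2L11 in the double line against control (5.56% of all genes) and by BCL2L1 in the double line against the HORMAD1 line (7.59%). It was reached by 0 members in the other 4 (2.74% of all genes in the CT83 line and 1.82% in the HORMAD1 line against control, 8.05% in the double against the CT83 line, 4.5% for the interaction). In DESeq2, PMAIP1 also had an unadjusted p of 0.0446 in the double line against the HORMAD1 line (adjusted p = 0.75).

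Few members were separated between lines. In the HORMAD1 line against control, all libraries of MCL1 were higher (4.25% of all genes were higher without overlap and 7.56% separated in either direction). In the double line against control, all libraries of BCL2L1 and BCL2L11 were lower (7.83% of all genes, and 15.4% in either direction). All libraries of BCL2L11 were also lower in the double line than in the CT83 line (9.04%, and 17.9% in either direction) and than in the HORMAD1 line (5.91%, and 12.2%). In the CT83 line against control 0 members were separated (10.5% of all genes). The median log2 fold change of the 9 members was -0.07, 0.01 and 0 against control in the CT83, HORMAD1 and double lines, beside 0.01, 0.01 and 0 over all genes. The comparisons against control share the control libraries. The separations of BCL2L11 all rest on the same double libraries and are not independent of each other.

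**Figure D4:**
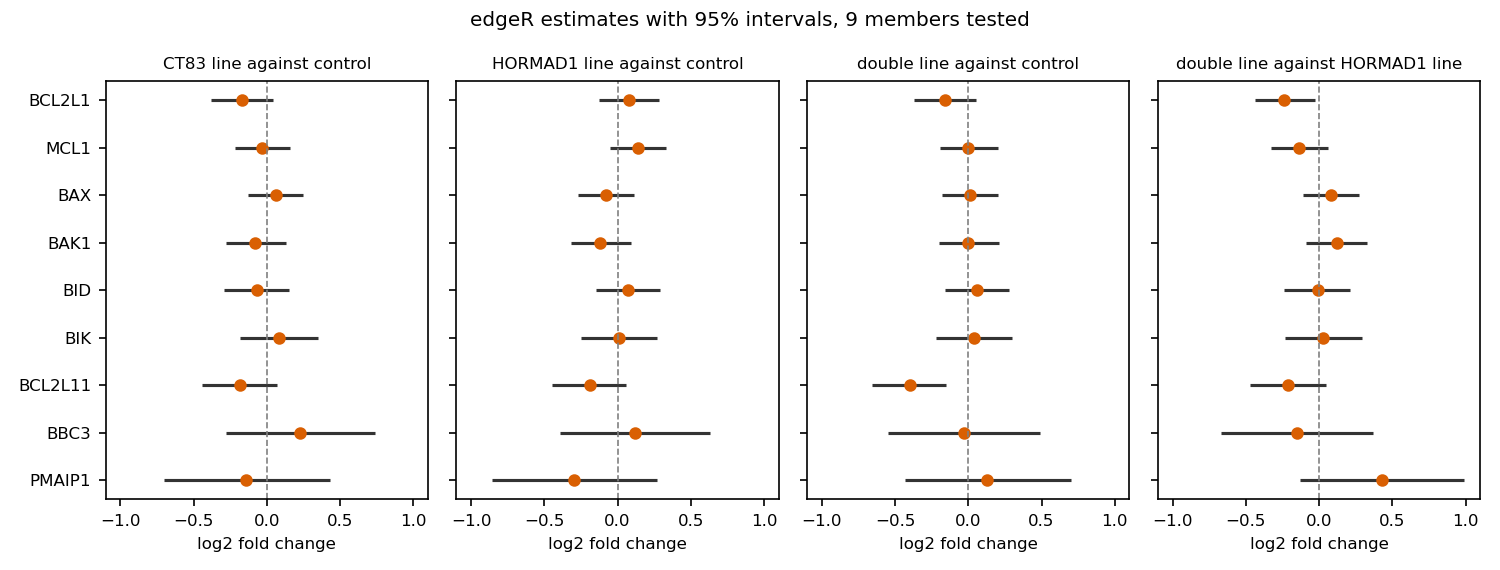
Log2 fold changes (x axes, edgeR, points) with 95% intervals (lines) for the 9 members tested (y axis) in 4 comparisons; the dashed line marks 0. The interval of BCL2L11 in the double line against control runs from -0.66 to -0.15 and that of BCL2L1 in the double line against the HORMAD1 line from -0.44 to -0.03, before any adjustment over genes.

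Within lines, BID, BIK, PMAIP1 and BAK1 varied together from library to library. After subtraction of each line's mean log2 CPM, BIK and PMAIP1 had a Pearson correlation of 0.97 over the 12 libraries, BID and BIK 0.95, and BID and PMAIP1 0.87, and those of BAK1 with these 3 were 0.75 to 0.81. MCL1 ran the opposite way, with -0.92 against BIK and -0.85 against PMAIP1. The other members did not follow them: BCL2L1 had 0 with PMAIP1 and 0.08 with BIK, BAX had -0.1 with PMAIP1 and -0.58 with BAK1, and BCL2L1 and BBC3 had -0.62. The libraries' slope on transcript length moved with them: its correlation was -0.9 with BID, -0.89 with PMAIP1, -0.89 with BAK1, -0.88 with BIK and 0.66 with MCL1, but 0 with BCL2L1 and -0.22 with BCL2L11. These coefficients describe 12 libraries that share depth and line means and carry no test, and the part of the length trend in the members' levels was not tested. After a correction for transcript length and GC content, the spread of PMAIP1 within lines was 0.27 in place of 0.34 and that of BAK1 0.17 in place of 0.12.

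**Figure D5:**
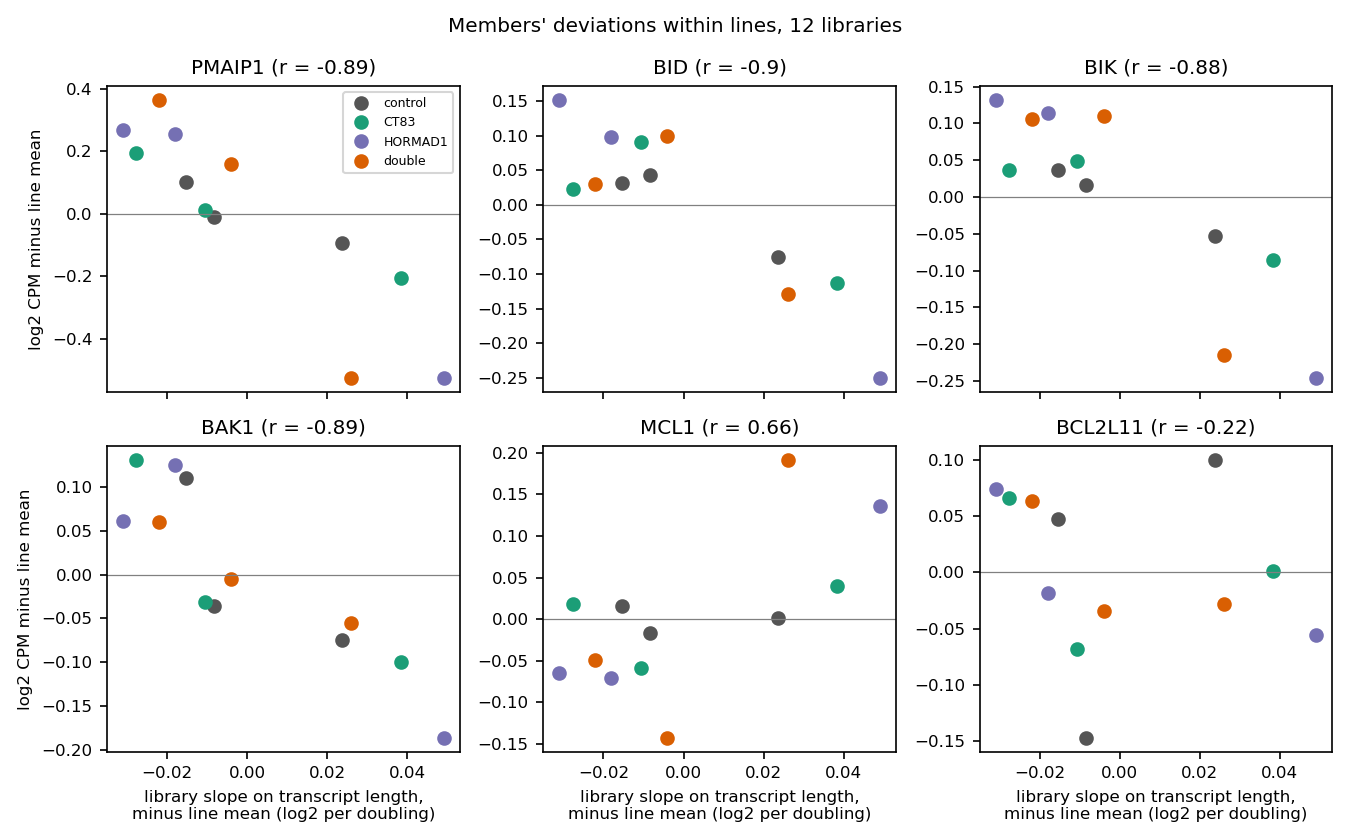
Deviation of log2 CPM from the line mean (y axis) for 6 members against the library's slope on log2 transcript length, also relative to the line mean (x axis); each point is 1 of 12 libraries, coloured by line, and r is Pearson's. PMAIP1, BID, BIK and BAK1 are lower where the slope is higher (r from -0.9 to -0.88), MCL1 has r = 0.66 and BCL2L11 r = -0.22.

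The genes most like a member over the 12 libraries, among 8164 other genes of at least 4 mean log2 CPM, were named for the members with the highest coefficients, BCL2L1 and BID being tied. CD63 (r = 0.98) and PPIB (0.97) followed PMAIP1, MBTPS1 (0.98) and TBC1D5 (0.92) followed MCL1, NCOA5 (0.95) and KRT80 (0.94) followed BCL2L1, and TOR1AIP1 and GCNT7 (0.95 each) followed BID. The closest gene to BCL2L11 was TIMP3 (0.84). These are the highest of many coefficients over 12 libraries and carry no test. PMAIP1, BID and MCL1 also moved with the libraries' slope on transcript length within lines (r = -0.89, -0.9 and 0.66). The part of that slope in these likenesses was not tested.

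The summed level of the 3 anti-apoptotic members per kb was 0.624 to 0.645 times that of the 7 effector and BH3-only members in control. The ratio was 0.544 to 0.7 in the CT83 line, 0.683 to 0.85 in the HORMAD1 line and 0.484 to 0.752 in the double line. All HORMAD1 libraries lay above all controls, with the highest ratio in HORMAD1 replicate 1, the library with the lowest PMAIP1, and the CT83 and double lines spanned the control values. MCL1 made up 43.2 to 51.5% of the anti-apoptotic sum over the 12 libraries. These sums are descriptions at the transcript level and use the longest transcript of each gene. With the median transcript, BCL2L1 in control went from 78.7 to 225 CPM per kb and PMAIP1 from 66.5 to 103. The ratio thus depends on the length used, and it was not computed with the median transcript. The sums also carry the uncertain counts of BAK1 and BCL2L1, which GGNBP1 and ABALON overlap.

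Of 13 other BCL2 family genes, 11 were tested and 0 were called by edgeR, DESeq2 or limma-voom in any of the 6 comparisons. This also held for each list below, except for BIRC3 in DESeq2; an unadjusted p under 0.05 in edgeR was reached by at most 1 gene of this list and at most 2 of any list in a comparison. BCL2 itself was low, at 2.61 ± 0.44 CPM in control and 2.18 ± 0.65 in the double line (SD, n = 3 each). BAD and BOK, which promote death, were at 56.7 ± 1.53 and 48.8 ± 1.59 CPM in control, while BCL2L10 and BCL2L15 had at most 5 and 4 counts per library. The smallest unadjusted p values against control belonged to BCL2L13 in the double line (log2 fold change 0.17, SE 0.08), BOK in the CT83 line (0.14, SE 0.1) and BNIP3L in the CT83 line (-0.19, SE 0.13). The median log2 fold change of this list against control was 0.02, 0.06 and -0.02 in the CT83, HORMAD1 and double lines.

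Downstream of the pore, 10 of 11 genes were tested and 0 were called in any comparison by these tools. The executioner caspase CASP6 was at 30.6, 28.1 and 33.6 CPM in the double line and 22.5, 22.1 and 26.5 CPM in control. The double libraries of CASP6 lay above all controls, as did those of 7.61% of all genes. Its log2 fold change was 0.38 (SE 0.11, edgeR adjusted p = 0.712) against control and 0.43 (SE 0.11, adjusted p = 0.218) against the HORMAD1 line. APAF1, the scaffold of the apoptosome, was at 25.6, 27.4 and 23.6 CPM in the HORMAD1 line against 19.4, 23.4 and 20.5 CPM in control (0.27, SE 0.13, edgeR adjusted p = 1). CASP9, the caspase that APAF1 activates, had 0.46 (SE 0.25) in that comparison. The entry matched to the symbol DIABLO was listed at 0 in every library, and whether its RNA was absent was not tested. The list's median against control was -0.08, -0.05 and 0.03 in the CT83, HORMAD1 and double lines.

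Of 6 inhibitors of apoptosis, 5 were tested; edgeR and limma-voom called 0 in any comparison, and DESeq2 called 1, BIRC3, in the double line against the HORMAD1 line. BIRC3, a ubiquitin ligase that is a known NF-kB target, was at 99.6, 124 and 99.4 CPM in control and 110, 111 and 90.5 CPM with CT83 alone. It was at 148, 152 and 134 CPM with HORMAD1 alone and at 100, 79.4 and 98.7 CPM in the double line. The HORMAD1 libraries lay above all 9 others, and the double libraries overlapped control. Of all genes, 4.25% were higher without overlap in the HORMAD1 line than in control, and the share above all 9 others was not computed. The difference of the double from the HORMAD1 line was -0.64 (SE 0.12), with adjusted p-values of 0.0811 in edgeR, 0.00107 in DESeq2 and 0.128 in limma-voom. DESeq2 called 57 of all genes tested in this comparison. BIRC3 differed from control by 0.43 (SE 0.11, unadjusted p = 0.00194, adjusted p = 1 in edgeR) in the HORMAD1 line and by -0.21 (SE 0.12) in the double line. The interaction for BIRC3 was -0.6 (SE 0.16, edgeR adjusted p = 0.841). BIRC5 was at 307 ± 12.5 CPM in the double line and 269 ± 26.6 in control (0.19, SE 0.1). The list's median against control was -0.05, -0.01 and -0.1 in the CT83, HORMAD1 and double lines.

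Of 12 death receptor genes, 11 were tested, 0 were called by these tools and the medians against control were 0.02, 0.02 and 0.07. CFLAR, an inhibitor of caspase-8, had 0.23 (SE 0.11) in the HORMAD1 line, and FADD, its adaptor, had -0.16 (SE 0.09) and the receptor TNFRSF10B 0.15 (SE 0.09) in the CT83 line. The 4 regulators of MCL1 stability were tested with 0 calls by these tools and medians of 0.19, 0.14 and 0; USP9X, a deubiquitinase of MCL1, was at 117 ± 10.2, 128 ± 2.1, 130 ± 13.1 and 106 ± 9.77 CPM in the control, CT83, HORMAD1 and double lines. FBXW7, part of a ubiquitin ligase for MCL1, had 0.25 (SE 0.17) in the CT83 line.

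All 15 p53 and stress regulators were tested with 0 calls by these tools and medians against control of -0.01, -0.05 and -0.05. MYC was at 337, 352 and 329 CPM in the double line against 409, 407 and 380 CPM in control (log2 fold change -0.23, SE 0.07, edgeR adjusted p = 0.712). The double libraries of MYC lay below all controls, as did those of 7.83% of all genes. DDIT3, a stress factor that can raise BCL2L11 and BBC3, was at 11.1, 11.2 and 13.4 CPM with CT83 alone and at 14.2, 13.5 and 16.9 CPM in control (-0.32, SE 0.14, edgeR adjusted p = 0.984).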

How the data were processed

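The authors deposited expected counts for each gene (estimates, not always whole) in 12 libraries. The submitters' processing notes name Trimmomatic 0.39, STAR 2.7.5c, Picard and SAMtools, and both hg38 and hg19 without roles; the counting tool, annotation and use of strand were not given in the sources used here. Values were rounded (6.75% changed). Symbols came from a table of gene identifiers (61369 matched) and coordinates and lengths from GENCODE 29.

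In R 4.3.3, genes passing filterByExpr at a minimum count of 10 were TMM-scaled and fitted with edgeR 4.0.16 (quasi-likelihood, robust, 1 mean per line, 8 residual degrees of freedom), with Benjamini-Hochberg adjustment over 15616 genes and calls under 0.05. The design assumed counts; rounded expected counts took the same test. DESeq2 1.42.0, limma-voom (limma 3.58.1), other scalings and filters, and left-out libraries were alternatives. Log2 CPM used a prior count of 2. SE is the log2 fold change over the root of the F statistic.

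Members and lists were chosen with earlier results of these data known, and so were the 3 libraries left out for their length trend. Named genes were all members, up to 3 genes per list with the smallest unadjusted p against control, called genes, and the most similar genes by Pearson correlation; further genes were named after their values were seen. In a simulation of the double line against control over 15616 genes, the fit recovered 47.8%, 77.6% and 100% of genes changed 1.5-fold, 2-fold and 4-fold, with 9 false calls. The simulation drew each gene independently, without the length trend of the libraries, and changed only better-expressed genes. It therefore does not give the power in the real libraries. There edgeR did not call the CT83 difference of -2.36 between the double and CT83 lines (adjusted p = 0.585). No replicate pair agreed within sampling noise (chi-square per degree of freedom at least 2.48). Floors cover counting error only.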

Additional observations from a re-analysis of the deposited data

How the results depend on the processing

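The comparisons are given here in a fixed order: CT83, HORMAD1 and double against control, double against CT83, double against HORMAD1, and the interaction. With all 12 libraries, 1, 1, 4, 1, 7 and 0 genes and 0 members were called. Over 25 alternatives (1 fewer for the interaction) the members' log2 fold changes gave 1341 values. Of these, 1282 stayed uncalled with no change of sign, 53 changed sign without a call and 6 became called. Signs were compared after rounding, and a value of 0 on either side counted as no change. All 6 calls came from settings that left out several libraries. Without control replicate 2, CT83 replicate 3 and HORMAD1 replicate 1, 119, 6, 13, 73, 339 and 22 genes were called, with 1 member (BCL2L1) in double against HORMAD1. Without these and double replicate 3, chosen after seeing the data, 367, 11, 60, 235, 652 and 72 genes were called. There the members called were BCL2L1 in CT83 against control (1 member), PMAIP1 in double against CT83 (1), both in double against HORMAD1 (2) and PMAIP1 in the interaction (1). The cause was not tested. Without a low-count filter, 0, 12, 0, 99 and 2 genes were called in the comparisons other than HORMAD1 against control. DESeq2 called 2 in HORMAD1 against control, 3 and 57 in double against CT83 and HORMAD1, and 3 for the interaction; limma-voom called 2, 2 and 3 in double against control, CT83 and HORMAD1. With only the groups compared, 0, 0 and 1 were called in CT83 and HORMAD1 against control and double against HORMAD1, and the length and GC correction gave 11 in the last.

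The replicate number as a block gave 2, 2 and 1 genes called in double against control, CT83 and HORMAD1, and 0 members. Same-numbered libraries had correlations of -0.35 to 0.35 in their deviations from line means, so the numbers were not taken to pair samples. When each library was left out in turn, 0 to 1, 1 to 2, 1 to 5, 1 to 2, 0 to 39 and 0 genes were called, and 0 members; the 39 arose without HORMAD1 replicate 1. Members without overlap then ranged over 0 to 3, 1 to 4, 2 to 6, 1 to 4 and 1 to 6 of 9, beside 10.5 to 31.1%, 7.56 to 30.8%, 15.4 to 31.6%, 17.9 to 33.6% and 12.2 to 27.9% of all genes. Both counts of 6 arose without double replicate 3 (31.6% and 26.2% of all genes). They numbered 1 with upper-quartile scaling in CT83 against control (10.5% of all genes), and 2 with library size alone in HORMAD1 against control (7.84%) and double against HORMAD1 (12.5%). Adding the counts of overlapping genes, also chosen after seeing the data, changed no call of a member. Depth limited BCL2A1 and BBC3.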
